A study of Daphnia magna with 15 samples.

Results

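The 1144 gene models described here were those with very many bisulfite calls in adult females of the water flea Daphnia magna, a small crustacean of fresh water. They were chosen by measured values: a gene model counted as covered in a library with at least 10 cytosine calls, and it was kept where it was covered in at least 6 of 15 libraries with a median of at least 500 calls over those libraries. They made up 4.56% of the 25092 gene models listed in any library and held 41.8% of all calls. Because the number of calls chose them, every value of that number is given as a description without a test. The methylated calls took no part in the choice, and levels could be compared between groups.

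The libraries fell into 2 groups by the treatment label. Control libraries (3) came from cultures at 0 g/L NaCl, and salinity libraries (12) from cultures founded at 4.1 g/L NaCl. All animals were adult females, and all cultures were held at 20 °C with 16 h light and 8 h dark per day. The founders were exposed until they had matured and bred, and later generations, up to generation 4, were raised in control medium. The labels give neither the generation of a salinity library, nor the culture among the 3 founded for each exposure, nor how many animals were pooled. The 12 salinity libraries are therefore not all from separate founding cultures. The p-values below rest on the spread between libraries, part of which may be technical. In the regression below, a gene model whose libraries differ less than counting error allows is tested on counting error instead.

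In arthropods, DNA methylation is sparse compared with vertebrates and lies mostly at CpG sites within the bodies of a subset of genes. MspI cuts DNA at CCGG whatever the methylation of the inner cytosine, so a library made from its fragments samples the same CpG-bearing stretches again and again. Bisulfite turns unmethylated cytosines into bases that are read as thymine, while methylated cytosines are still read as cytosine. A call here is a single reading of a cytosine, and the level of a gene model is its methylated calls as a percentage of all its calls. The number of calls counts reads of digested DNA and says nothing about how strongly a gene is transcribed.

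The members are identified by the gene model names in the deposited values (all of the form Dapma7bEVm029282t1). Of the 1144 names, 0 matched the 28335 genes of the reference table used, so no gene symbol or function is assigned to any of them. The position deposited with a gene model is a number without a scaffold, and 86 members carried different positions in different libraries, so no genomic location is stated.

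Some depth facts of the whole series bear on what follows. The libraries held between 1250901 calls (salinity 12) and 2905380 calls (salinity 8). Methylated counts of 1 and 2 were nearly absent from the values, and the lowest methylated count that recurred was 3 in 11 libraries and 4 in control 3 and salinity 9, 11 and 12. A level of 0 therefore means few or no methylated calls. At 500 calls the lowest visible level is 0.6%, and at 5000 calls it is 0.06%.

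The members' share of calls was uneven between libraries. It was 34.1% in control 1, 33.3% in control 2 and 42.1% in control 3. Over the 12 salinity libraries the lowest share was 39.4%, the median 42.4% and the highest 49.7%. Controls 1 and 2 thus lay below every salinity library, while control 3 lay among them. The means were 36.5% ± 4.86 over the controls (SD, n = 3) and 43.4% ± 3.71 over the salinity libraries (SD, n = 12). Within the 3 bands of the S number in the library titles, whose meaning the labels do not give, the control stood at 34.1%, 33.3% and 42.1%. The 4 salinity libraries of the same bands averaged 43.1% ± 3.07, 44.8% ± 5.58 and 42.2% ± 2.27.

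**Figure D1:**
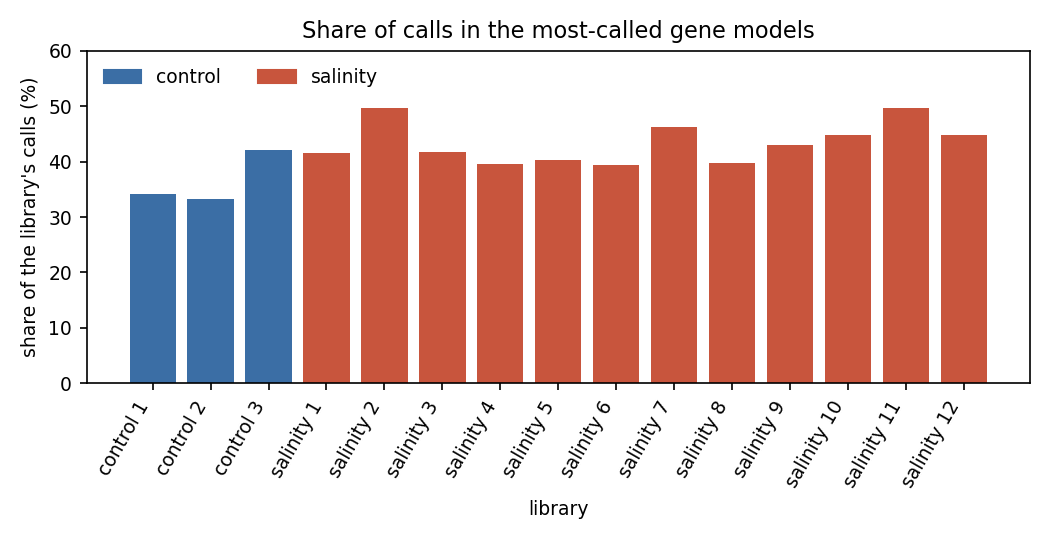
Share of each library's cytosine calls that fell in the 1144 gene models (vertical axis, percent, from 0), with control libraries in blue and salinity libraries in red. The bars of controls 1 and 2 (34.1% and 33.3%) are lower than all others, and those of salinity 2 and salinity 11 (both 49.7%) are the highest.

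The gap was not seen over gene models common to all libraries, which are far fewer members over another total. Over the 1387 gene models listed in every library, of which 40 are members, the members' share was 29.3% ± 1.89 over the controls (SD, n = 3) and 28.9% ± 2.23 over the salinity libraries (SD, n = 12), and the sign of the difference turned. Whether listing had a part in the gap over all 1144 members was not tested. The members' part of the listed gene models was 4.48% ± 0.491 over the controls (SD, n = 3) and 5.01% ± 0.307 over the salinity libraries (SD, n = 12). Control libraries listed 676, 602 and 687 members, and salinity libraries between 380 (salinity 12) and 933 (salinity 8), with a median of 556.

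Being deeply covered did not mean being listed everywhere. Of the 17160 possible pairs of member and library, 9349 (54.5%) were listed, close to the 56.2% of the 16835 other gene models covered in as many libraries. Only 105 of the listed pairs had fewer than 10 calls. The 39 members with a median of 5000 or more calls were each missing from at least 1 library. The count of libraries that covered a member had its peak at 7 libraries, and 38 members were covered in every library, while 159 were covered in only 6. Most members, 659, were covered in a single control library, 144 in 2, 334 in all 3 and 7 in none.

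The missing libraries recurred in fixed combinations. The 1144 members showed 93 combinations of libraries, and the 17 combinations with at least 20 members held 924 of them (80.8%). The most frequent, with 173 members, was control 1 with salinity 1, 4, 7, 8, 9 and 10. The next, with 99 members, was control 3 with salinity 2, 8, 9, 10 and 11, and a further 72 members were listed in all 3 controls with salinity 5, 6, 8 and 10. None of these combinations separates control from salinity libraries. The most frequent was also held by 2938 gene models of the whole series, so it is not particular to deeply covered ones.

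**Figure D2:**
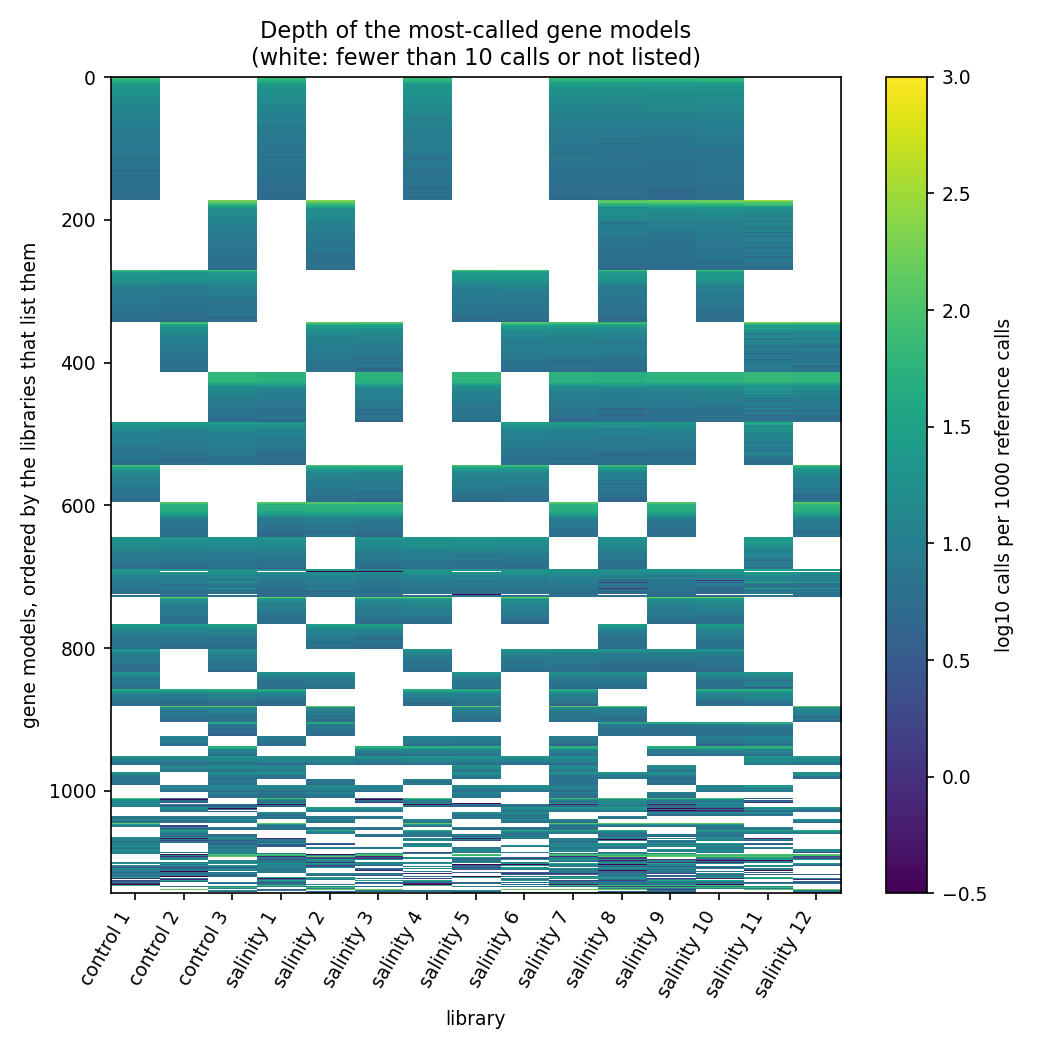
Depth of each of the 1144 gene models (rows of the map, ordered by the libraries that list them) in each of the 15 libraries (columns). Colour is the log10 of calls per 1000 reference calls, and white marks fewer than 10 calls or no listing. The blocks show combinations of libraries shared by many gene models, the most frequent with 173, and little change of colour along a row inside a block.

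Where a member was listed, its depth was steady. To compare libraries of different size, calls were expressed per 1000 reference calls, the reference being the 1347 gene models listed in every library that are not members (69829 to 114943 calls per library). On this scale the median coefficient of variation over covered libraries was 11.2%, with the middle range of members from 8.32% to 16.4%. The same median was 28.5% in the other gene models covered in at least 6 libraries. Counting error is also smaller at larger counts, and its part in this difference was not tested. The median fell from class to class of depth, from 36.3% at 10 to 50 calls to 12.1% at 500 to 1000 calls and 6.82% at 5000 or more. The highest and lowest depth of a member differed by a median of 1.39-fold, and 1006 members (87.9%) stayed within 2-fold. As a share of all calls of a library, the median coefficient of variation was 26.2% and the median range 2.15-fold.

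A minority behaved differently and went from very many calls to few. In 57 members at least 1 covered library lay below 0.2 of the member's own median, in 145 listings altogether, and 48 members spanned more than 10-fold. In 42 of the 57, the libraries with high depth were exactly a combination in which at least 20 gene models of the series were listed. Low depth in these members thus fell in the same libraries in which other gene models were not listed at all.

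The widest range of shares belonged to Dapma7bEVm018423t1, with a median of 8854 calls. It had 22 calls in control 2 and 21 in salinity 2, and between 7306 (salinity 3) and 11364 (salinity 5) in the other covered libraries. Control 3 had 10044 calls. The highest and lowest share differed 738-fold and the depths 673-fold, with a low and a high library in each of the groups. Methylated calls were few throughout, from 0 to 8 per library. With 22 calls in control 2, a level like the 0.0597% of control 3 could not be seen there, so the groups are not compared.

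Dapma7bEVm018392t1, chosen after its values were seen, showed the same form. It had 11797 calls in control 3, 16790 in salinity 2, 12873 in salinity 8, 13183 in salinity 9, 12581 in salinity 10 and 9932 in salinity 11. It had 81 calls in control 2 and 63, 56, 67 and 136 in salinity 1, 3, 7 and 12. The 6 libraries of high depth were exactly those that listed Dapma7bEVm644570t1, Dapma7bEVm023453t1 and Dapma7bEVm018690t1. All 4 gene models carried the same methylated counts there, namely 19 in control 3 and 83, 57, 23, 21 and 28 in the salinity libraries in the order above. Their total calls there agree within 2%, so the 4 names are not separate measurements, though the totals and counts given here keep each name. Dapma7bEVm018696t1, also chosen afterwards, had 10 to 30 calls in salinity 3, 8, 9 and 12 and 6550 to 9581 in the other 9 covered libraries, a 713-fold range of depth.

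Such near-identical counts were tallied over all members. In 83 pairs the calls differed by at most 2% and the methylated calls were equal in every library covering both, with at least 6 such libraries. They joined 92 members into 38 sets, the largest of 9, so the 1144 names stand for 1090 distinct measurements by this measure. The shares, levels and counts given here keep all 1144 names unless stated. In 78 of the 83 pairs the deposited positions lay within 10000 bases of each other, with a median distance of 108 bases over all pairs. In 9 sets with 18 members the counts were identical in every library.

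Without the members that dropped below 0.2 of their median, 81 members still spanned more than 2-fold. Of these, 64 were covered in salinity 11, and 42 of the 64 (65.6%) had their highest depth there. Over all members covered in salinity 11, 284 of 574 (49.5%) were highest in that library, and its members stood at a median of 1.14 times their own median depth. Among the members covered in every library, the range was also wide in Dapma7bEVm009363t1 (chosen after its values were seen), which is not among the 81 because salinity 8 lay below 0.2 of its median. It ran from 99 calls in salinity 8 to 2984 in salinity 11. It had 697, 1072 and 2290 calls in the controls and a 33.8-fold range of depth. Dapma7bEVm645890t1, with the same numbers of methylated calls per group, ran from 118 to 3093 calls in the same libraries and is not among the 81 either.

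The 5 members with the most calls were Dapma7bEVm029282t1, Dapma7bEVm016031t1, Dapma7bEVm017062t1, Dapma7bEVm646195t1 and Dapma7bEVm028995t1, with medians of 39516, 20749, 18656, 17002 and 15349 calls. They held 6.76% of the members' calls and 21.02% of the members' methylated calls. All were covered in a single control library and in 5 to 7 salinity libraries. They divided into 3 of wide and 2 of narrow range of depth.

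Dapma7bEVm029282t1 had 39143 calls in control 3, and 76393, 19146, 39889, 33629 and 80267 in salinity 2, 8, 9, 10 and 11. Per 1000 reference calls the depth ran from 216 in salinity 8 to 1017 in salinity 11, a 4.70-fold range. Its levels in the same order were 0.450% in control 3 and 0.418%, 0.277%, 0.479%, 0.369% and 0.634%. The control lay inside the range of the salinity libraries, and the level was lowest and highest in the same libraries as the depth. The salinity mean was 0.435% ± 0.134 (SD, n = 5), 0.0144 percentage points below the control (exact permutation test, two-sided p = 1, smallest possible 0.167).

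Dapma7bEVm646195t1 was listed in the same 6 libraries and followed a like course. It had 17340 calls in control 3 and 30028, 9437, 16663, 14881 and 30674 in the salinity libraries, a 3.64-fold range of depth. The level was 0.358% in control 3 and 0.343%, 0.0424%, 0.414%, 0.249% and 0.688% in salinity 2, 8, 9, 10 and 11. Again salinity 8 was lowest and salinity 11 highest in both depth and level. The salinity mean was 0.347% ± 0.236 (SD, n = 5; exact permutation test, two-sided p = 0.833).

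Dapma7bEVm017062t1 had 18909 calls in control 2. Salinity 2, 3, 6 and 7 gave 35911, 15332, 18403 and 15194 calls, and salinity 8, 11 and 12 gave 10181, 41815 and 32343. Salinity 8 was again the lowest and salinity 11 the highest, with a 4.60-fold range of depth. No methylated call was recorded among the 10181 in salinity 8, while the other salinity levels were 0.329%, 0.176%, 0.250%, 0.112%, 0.364% and 0.306%. The control level of 0.116% lay inside that range, and the salinity mean was 0.219% ± 0.131 (SD, n = 7; exact permutation test, two-sided p = 0.750, smallest possible 0.125).

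The pair with narrow range, Dapma7bEVm016031t1 and Dapma7bEVm028995t1, shared the most frequent combination of libraries. Dapma7bEVm016031t1 had 23237 calls in control 1 and 19266, 28110, 19822, 20030, 23158 and 20749 in salinity 1, 4, 7, 8, 9 and 10. Its depth stayed between 226 and 255 per 1000 reference calls, a coefficient of variation of 4.18%. The level was 0.357% in control 1 and 0.234%, 0.366%, 0.252%, 0.330%, 0.255% and 0.222% in the salinity libraries. The control was exceeded by salinity 4 alone, and the salinity mean was 0.276% ± 0.0580 (SD, n = 6; exact permutation test, two-sided p = 0.286, smallest possible 0.143). Dapma7bEVm028995t1 had a depth of 167 to 192, a control level of 0.288% and a salinity mean of 0.242% ± 0.0889 (SD, n = 6; exact permutation test, two-sided p = 0.429). With a single control library each, none of these 5 comparisons could reach 0.05.

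**Figure D3:**
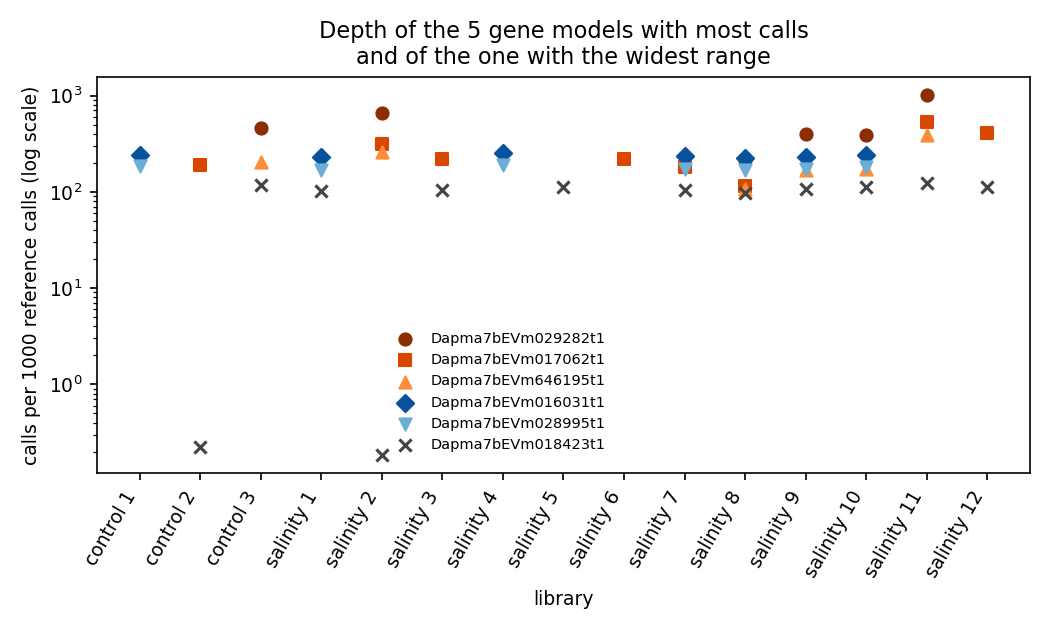
Calls per 1000 reference calls (log scale) in each library for the 5 gene models with the most calls and for Dapma7bEVm018423t1. The blue symbols (Dapma7bEVm016031t1 and Dapma7bEVm028995t1) lie level, and the red and orange ones rise in salinity 2 and salinity 11. Dapma7bEVm017062t1 also rises in salinity 12 (410, against 312 in salinity 2). The crosses (Dapma7bEVm018423t1) drop to 0.220 in control 2 and 0.183 in salinity 2 from 96.6 to 123 elsewhere.

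At the lower end, the threshold separated gene models that differ little. Just inside it, Dapma7bEVm003000t1 and Dapma7bEVm009972t1 had medians of 500 calls and no methylated call in 6 and 7 libraries. Just outside, Dapma7bEVm030520t1 had a median of 499.5 calls and no methylated call, and Dapma7bEVm009707t1 a median of 499 calls with 14 methylated calls in 4 salinity libraries. The member with the narrowest range of shares, 1.41-fold, was Dapma7bEVm003483t1. It had 565, 637 and 683 calls in the controls, 456, 495 and 678 in salinity 1, 7 and 9, and no methylated call.

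The members as a whole were methylated at a low level. They held 14636 methylated calls, 16.4% of those of the series, against 41.8% of all calls. Over the members the level was 0.119% in control 1, 0.0979% in control 2 and 0.0806% in control 3. In salinity libraries it ran from 0.0579% (salinity 12) over a median of 0.111% to 0.186% (salinity 2). All other gene models together stood at 0.480%, 0.503% and 0.209% in the controls and at 0.111% to 0.583% in the salinity libraries. The members were the lower of the pair in 14 of 15 libraries.

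The exception was salinity 11. There the members stood at 0.138% (Wilson 95% interval 0.131 to 0.146) and the other gene models at 0.111% (0.104 to 0.118); such intervals cover counting error only. The 5 members with the most calls supplied 67.3% of the members' methylated calls in that library, from 8.07% of its calls. Without those 5 the members' level in salinity 11 was 0.0539%, and the members were below the rest in 15 of 15 libraries. Salinity 11 was also a library with a lowest methylated count of 4, and 1.56% of its other gene models had methylated calls, against up to 10.8% in salinity 5. The part of that low share in the exception was not tested.

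Control and salinity libraries overlapped in the members' level. The mean was 0.0991% ± 0.0192 over the controls (SD, n = 3) and 0.113% ± 0.0347 over the salinity libraries (SD, n = 12), a difference of 0.0140 percentage points, smaller than either SD. Leaving out control 1 moved that difference to 0.0239, leaving out control 3 to 0.00475 and leaving out salinity 2 to 0.00740 percentage points. Within the 3 title bands the control stood at 0.119%, 0.0979% and 0.0806%, and the 4 salinity libraries averaged 0.114% ± 0.00442, 0.142% ± 0.0412 and 0.0835% ± 0.0199. No p is given, since the members were chosen with results known. The other gene models stood at 0.397% ± 0.163 (SD, n = 3) and 0.409% ± 0.150 (SD, n = 12).

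**Figure D4:**
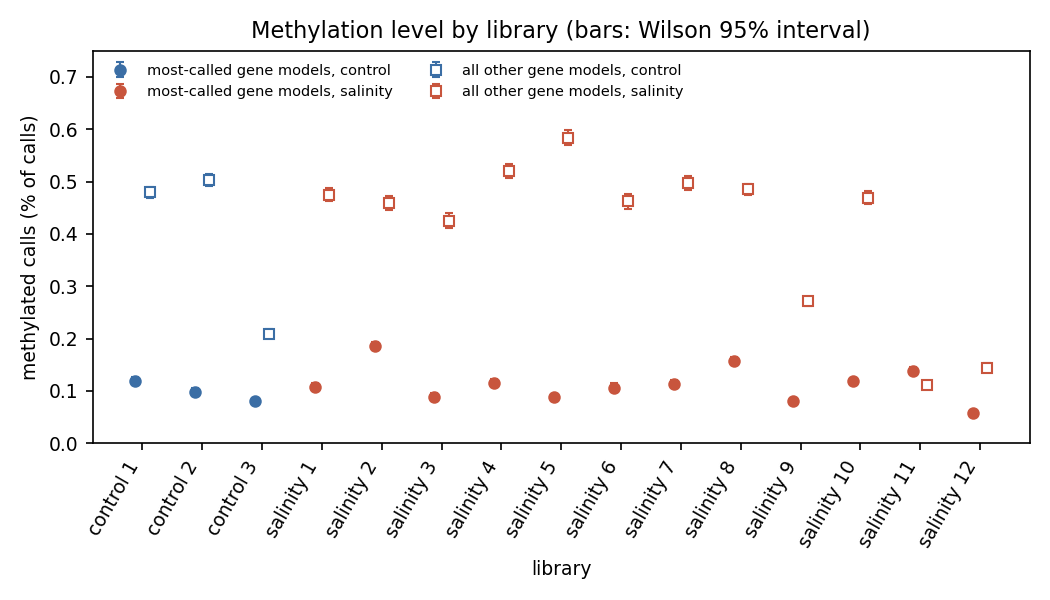
Methylated calls as a percentage of all calls in each library, for the 1144 gene models (filled) and all other gene models (open), with Wilson 95% intervals as bars and control in blue, salinity in red. Filled symbols lie between 0.0579% and 0.186%, below the open ones in every library but salinity 11.

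Most members had no recorded methylated call. In 655 of 1144 (57.3%) no covered library held a methylated call, 225 had methylated calls in a single library and 264 in at least 2. This absence is not particular to members. In the depth classes below 500 calls, only 25.2% to 28.6% of gene models had methylated calls in any library. In 117 members (10.2%) methylated calls were present in at least 1 of every 2 covered libraries, and in 32 they were present in all covered libraries. The 32 had a median of 5888 calls and the 655 without a methylated call a median of 714, so that seeing methylated calls went with depth. Of the 489 members with methylated calls, 172 had them in both groups, 33 in control libraries alone and 284 in salinity libraries alone. The salinity libraries are 4 to 1 in number, and the same split over all gene models was not tallied, so nothing is read from these counts. Per library, the share of listed members with methylated calls was 12.9% ± 3.87 over the controls (SD, n = 3) and 14.1% ± 4.60 over the salinity libraries (SD, n = 12).

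The level and its visibility changed together along the range of depth. From 10 to 50 calls, 25.2% of 6354 gene models had methylated calls in any library and the mean level was 1.39%. From 200 to 500 calls the values were 26.7% of 2400 gene models and 0.147%. Members of 500 to 1000 calls stood at 32.7% of 756 and 0.0645%, those of 1000 to 5000 at 58.5% of 349 and 0.0865%, and those of 5000 or more at 97.4% of 39 and 0.190%. Mean levels thus fell up to about 1000 calls and rose again above, while the share with methylated calls was no higher than 28.6% in the classes below 500 calls and rose above. The calling floor of 3 or 4 methylated calls corresponds to a higher level at low depth, and its part in the fall was not tested.

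Nearly every one of the 39 deepest members was methylated, but weakly: the highest mean level among them was 0.438%. They held 23.3% of the members' calls and 47.6% of the members' methylated calls. The exception, Dapma7bEVm028417t1 (named after its values were seen), had a median of 9100 calls and 0 methylated calls among 10450 in control 2 and 58142 in its 6 salinity libraries. Its depth stayed within 1.11-fold.

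**Figure D5:**
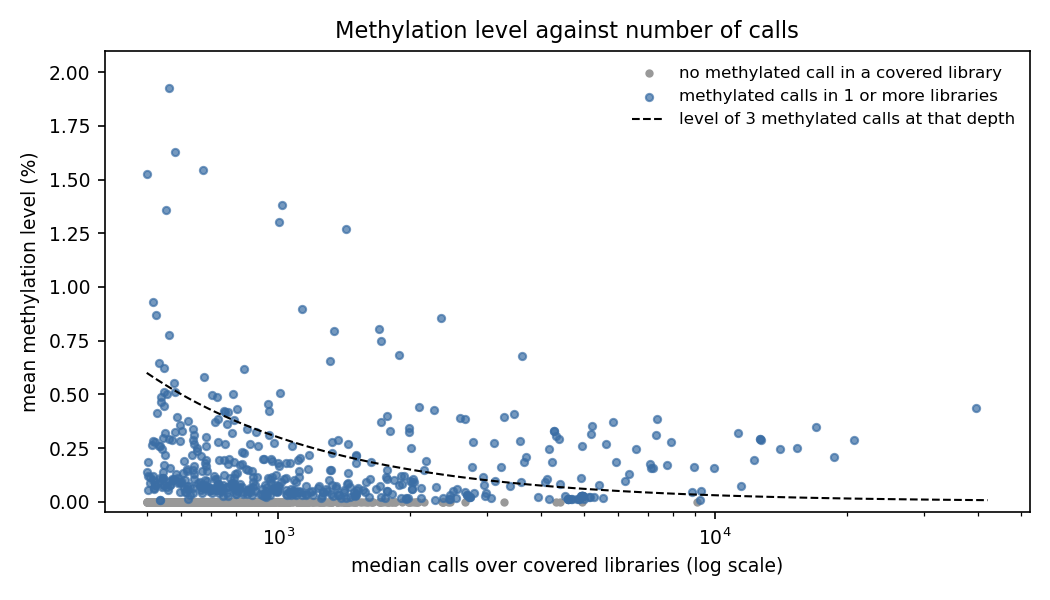
Mean methylation level over covered libraries (vertical axis, percent) against median calls (horizontal axis, log scale) for the 1144 gene models. Blue points had methylated calls in at least 1 library, grey points (655) in none, and the dashed line is the level of 3 methylated calls at that depth. Blue points lie at up to 1.93% near 500 calls, and those of 5000 or more calls at up to 0.438%.

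No member was highly methylated. Among 1320 listings with methylated calls the level had a median of 0.398%, and the highest level was 5.69%. Mean levels of 1% or more were found in 8 members, and of 2% or more in 0, against 1854 (11.0%) of the other gene models covered in at least 6 libraries. Among those others, the share at 1% or more fell from 23.0% at 10 to 50 calls to 3.75% at 200 to 500 calls. In the latter class the highest mean level was 4.28%. The part of depth and of the calling floor in the contrast with members was not tested. The 5 members with the highest mean level were Dapma7bEVm001187t1, Dapma7bEVm009472t1, Dapma7bEVm030506t1, Dapma7bEVm023118t1 and Dapma7bEVm015243t1.

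Dapma7bEVm001187t1, with a mean of 1.93%, had 28 of 578 calls methylated in control 1 (4.84%) and 0 of 546 in control 3. Salinity 2, 4 and 7 stood at 2.95%, 1.61% and 2.17%. Salinity 9, like control 3 a library with a lowest methylated count of 4, had no methylated call. The controls were the highest and the joint lowest of its 6 values, at 2.42% ± 3.43 (SD, n = 2) against 1.68% ± 1.25 (SD, n = 4) in salinity libraries (exact permutation test, two-sided p = 0.733, smallest possible 0.0667). Dapma7bEVm023118t1 held the highest single value of all members, 26 of 457 calls (5.69%) in salinity 1. Its other salinity levels were 0.881%, 0.875%, 2.40%, 0.830% and 0 in salinity 4, 7, 8, 9 and 10, with 0 of 532 calls in control 1 (exact permutation test, two-sided p = 0.429, n = 1 and 6).

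Dapma7bEVm009472t1 stood at 1.66% in control 1 (13 of 783 calls). Its 6 salinity libraries ran from 0 of 580 in salinity 9 over a median of 1.58% to 3.05% in salinity 8, on both sides of the control (exact permutation test, two-sided p = 1). Dapma7bEVm030506t1 was covered in all 3 controls, at 0.426%, 1.51% and 0 (3 of 704, 11 of 728 and 0 of 673 calls). Salinity 5, 6, 8 and 10 stood at 0.935%, 3.12%, 2.05% and 2.76%. Control 3, at 0, is a library with a lowest methylated count of 4. Control 2 lay above salinity 5, so the groups overlapped. The means were 0.646% ± 0.779 (SD, n = 3) and 2.22% ± 0.962 (SD, n = 4), a difference of 1.57 percentage points (exact permutation test, two-sided p = 0.114, smallest possible 0.0286).

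Dapma7bEVm015243t1 was the member of this group seen in all 15 libraries, with 758 to 1417 calls, and methylated calls in 14. The controls stood at 1.40%, 0.978% and 1.38%. The salinity libraries ran from 0 (0 of 977 calls in salinity 8) over a median of 1.32% to 3.12% (30 of 961 calls in salinity 12), enclosing the controls. The means were 1.25% ± 0.237 (SD, n = 3) and 1.41% ± 0.910 (SD, n = 12), and the two-sided exact permutation test gave p = 0.774 (smallest possible 0.00220). Dapma7bEVm028953t1, named after its values were seen, had close to the same counts (1003 against 1022 median calls) and stood at 1.12% ± 0.292 and 1.35% ± 0.856.

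The comparison of control with salinity, gene model by gene model, asks whether methylation of single members differed between the exposures. It used a quasi-binomial regression over the whole table, on the 1900 gene models that 2 or more controls and 8 or more salinity libraries covered. Of the members, 110 (9.62%) met that coverage and 1034 did not, and 60 of the 110 had methylated calls. The number called at a Benjamini-Hochberg adjusted p under 0.05 was 0 of 110, with a smallest adjusted p of 0.220, and among all gene models tested it was 0 of 1900 (0.00%). Control and salinity levels were equal in 50 of these members and in 1381 of the 1900, so those could not be called. The adjustment counted them and was not repeated without them, so 0.220 depends on their inclusion. Before adjustment, 5 of 110 members had a p under 0.05, against 57 of 1900 gene models (3.00%). Counting only those whose levels differed, it was 5 of 60 members against 57 of 519 gene models. edgeR's quasi-likelihood test took only gene models with methylated calls, 60 members among 519 gene models. It called 0 members, with 2 of the 60 at an unadjusted p under 0.05, against 16 of the 519. With limma on logit levels 0 of 110 members were called, with 5 at an unadjusted p under 0.05, against 72 of 1900 gene models.

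The differences of pooled levels were small on both sides. The salinity level was higher than the control level in 40 of the 110 members (36.4%), lower in 20 (18.2%) and equal in 50. Over all 1900 gene models it was higher in 344 (18.1%), lower in 175 (9.21%) and equal in 1381, so for both the median difference was 0. Fewer controls than salinity libraries were pooled, and the part of this in the split of directions was not tested. The members' differences ran from -0.794 to 0.757 percentage points. In depth, 0 of the 110 members had every control above every salinity library, against a background of 0.579%, and 0 had every salinity library above every control, against 0.263%; the number of calls chose the members, and nothing is read from these counts.

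The 5 members at an unadjusted p under 0.05, named after their values were seen, were all lower in salinity libraries and all rested on 1 control library. Dapma7bEVm012392t1 had 8 methylated of 809 calls in control 2 (0.989%), 0 of 199 in control 3, and 0 of 4993 in 9 salinity libraries (quasi-binomial regression, Benjamini-Hochberg adjusted p = 0.220). Dapma7bEVm010961t1 had 8 of 518 calls in control 3 (1.54%), 0 of 570 and 0 of 596 in controls 1 and 2, and 0 of 6179 in 12 salinity libraries (quasi-binomial regression, adjusted p = 0.314). In control 3, the 199 calls of Dapma7bEVm012392t1 are too few to show the level of control 2 (Wilson 95% upper limit 1.89%). Dapma7bEVm630077t1 and Dapma7bEVm023672t1 had nearly identical counts, with 4 methylated calls among 1023 and 1024 in control and 0 in salinity libraries (quasi-binomial regression, adjusted p = 0.484). Dapma7bEVm010104t1 had 3 of 1755 against 0 of 7417 calls (quasi-binomial regression, adjusted p = 0.630). The dispersion was 0.220 for Dapma7bEVm012392t1 and 0.438 for Dapma7bEVm010104t1, below the floor of 1. It was also below 1 for Dapma7bEVm630077t1 and Dapma7bEVm023672t1, so the regression p-values of these 4 rested on counting error. For Dapma7bEVm010961t1 the dispersion was 1.39, above the floor. The two-sided exact permutation test over libraries gave p from 0.182 to 0.2 for these 5. Each had methylated calls in 1 library only, a control, so this p was fixed by the numbers of libraries. Nothing is read from it. Of the 5, 4 were covered in controls 2 and 3 only, so that they are not tested once either is left out.

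The 38 members covered in every library allow the same libraries to be set side by side. They had a median of 749.5 calls, and a median range of depth of 1.54-fold. Methylated calls were present in 19 and absent in 19. Of the 19, 6 had them in both groups, 12 in salinity libraries alone and 1 in control libraries alone, and 3 had them in at least 10 libraries. With 12 salinity libraries against 3 controls and no such split over all gene models, nothing is read from these counts. Over these 38 the level was 0.118% ± 0.0326 over the controls (SD, n = 3) and 0.128% ± 0.0508 over the salinity libraries (SD, n = 12), so the groups again differed by less than the spread between libraries.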

How the data were processed

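Genomic DNA of 15 libraries was digested with MspI and bisulfite converted, per the labels' protocols. Trim Galore 0.4.4, FastQC and Bismark 0.18.1 are named in the submitters' processing notes. For the cytosine context and calling rule nothing is stated, and the genome build is likewise not given in the sources used here. Per library and gene model, the authors deposited a total count of calls and a count of methylated calls, both unnormalized. The deposited methylated values were treated like estimated counts and rounded, because 27 were not exactly whole. No library pair was identical (0 pairs).

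Gene models were joined by identifier. The members, lists and named gene models were chosen with earlier results of these data known. The text names the 5 members with the most calls, the 5 with the highest mean level, members passing the test, the 2 gene models on each side of 500 calls, and those with the widest and narrowest range of shares. Others are marked as chosen after their values were seen.

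Levels were tested on the counts with a quasi-binomial regression over 1900 gene models, with an F test on the deviance, a dispersion floored at 1 and Benjamini-Hochberg adjustment at 0.05 (numpy 2.4.6, scipy 1.17.1). It was tested on simulated data with changes far larger than any difference between groups in the members tested. Its power for changes as small as theirs was not tested. Single members were compared with two-sided exact permutation tests over libraries. Alternatives used edgeR 4.0.16, limma 3.58.1 (0.5 added to both counts) and other coverage minimums (5 and 20 calls). Libraries held 1250901 to 2905380 calls. Replicate numbers only name libraries.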

Additional observations from a re-analysis of the deposited data

Results flagged for a closer look

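Among the named members, 37 sets of values of a single group were examined, each of depths or levels over 4 to 10 libraries. The search was for a library far from the nearest of the others, and 3 sets held such a value. The usual chance rate of about 1 in 20 does not apply, because many of these members were named for extreme values or after their values were seen. Dapma7bEVm009472t1 had a depth of 7.98 calls per 1000 reference calls in salinity 10, against 5.73 to 6.50 in its other 5 salinity libraries. Its only control library stood at 8.17. Dapma7bEVm018423t1, named for the widest range of shares, had a depth of 0.183 in salinity 2, against 96.6 to 123 in its other 9 salinity libraries. Control 2 had a like depth of 0.220. Dapma7bEVm018696t1 had a level of 0.587% in salinity 10 (42 of 7160 calls), against 0 to 0.299% in the other 9, of which salinity 3, 8, 9 and 12 had at most 30 calls.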

How the results depend on the processing

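No member was called under 23 of 24 alternative settings. The exception was the dispersion without a floor, which called 1 member, Dapma7bEVm012392t1 (quasi-binomial regression, adjusted p = 0.000569, lower in salinity libraries, dispersion 0.220), among 23 of 1900 gene models. Over all settings the smallest adjusted p of a member ran from 0.000569 to 1, and from 0.104 to 1 with 1 library left out, where 0 to 0 members were called. No paired analysis was possible because the replicate numbers used here follow sample order and the labels hold none that pairs libraries. The title bands, a property of the titles and no pairing of animals, called 0 members as a block. With coverage in 3 rather than 8 salinity libraries, 478 members were tested and 0 called. Before adjustment 19 of the 478 had a p under 0.05 in the regression, against 283 of 10085 gene models. Both totals include gene models with equal levels in the groups, which could not reach such a p, so these rates are not compared. Of the 19, 16 were lower in salinity, but the direction over all gene models was not tallied and nothing is read from it. The difference in share of calls went from 6.87 to -0.399 percentage points over gene models listed in every library, by construction over other gene models, and ran from 5.26 to 9.66 with 1 library left out. The number of members fell from 1144 to 38 when coverage in every library was asked for, and ran from 975 to 1167 with 1 library left out. The median coefficient of variation went from 11.2% to 26.2% with all calls as the reference, which then includes gene models listed in some libraries only, and ran from 10.3% to 11.4% with 1 library left out. The level difference stayed positive under all 25 settings, each moving it by less than 1 SD, with 0.00475 to 0.0239 percentage points when 1 library was left out. It was 0.0140 as reported, 0.00337 as the mean of the members' own levels and 0.00820 without the 5 members with most calls. With 1 member of each near-identical set it was 0.0145, and over the 11 libraries with a lowest methylated count of 3 it was 0.0116. Of the 10 single members compared for level, 0 passed (0 to 0 with 1 library left out), but 8 could not reach 0.05 with their few libraries, and only Dapma7bEVm030506t1 and Dapma7bEVm015243t1 could have. Depth limits the levels: below 500 calls, levels under 0.6% could not be seen.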
